A study of Mus musculus with 8 samples.

Results

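The 10 genes described here carry iron into the cell, store it, release it from heme, export it, or control these steps: Tfrc, Slc11a2, Slc40a1, Fth1, Hmox1, Lcn2, Hjv, Hamp, Aco1 and Ireb2. They were chosen by name, with earlier results of these data known. Probe sets whose gene symbol in the platform annotation is one of the 10 were taken. This gave 24 of the 45101 probe sets of the array and 10 of the 18193 genes tested. Messenger RNA of whole hearts was measured on 1 Affymetrix mouse array per heart, in females that carried a conditional gene deletion driven by muscle creatine kinase (MCK), called KO, and in their wild-type (WT) littermates. The groups were KO and WT at 10 weeks and KO and WT at 4 weeks, with 2 mice in each of the 4 groups. MCK is active in heart and skeletal muscle fibres, so the other cells of the heart are not targeted. Per the series design text the mice of each age were littermates, and age and litter cannot be told apart.

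Cells take up iron bound to transferrin through the transferrin receptor, Tfrc, and Slc11a2 carries the iron across the endosome membrane. Ferritin, with the heavy chain Fth1, stores it, heme oxygenase Hmox1 frees it from heme, and ferroportin, Slc40a1, is the exporter, which the hormone hepcidin, Hamp, sends for degradation. The iron regulatory proteins, Aco1 and Ireb2, bind iron-responsive elements when iron is scarce, which stabilises Tfrc messenger RNA and blocks translation of ferritin and ferroportin messages. Aco1 holds an iron-sulfur cluster when iron is plentiful and then acts as the cytosolic aconitase.

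Promoter windows were available for 6 of the 10 genes, and 3 are printed for the import receptor, the siderophore-binding protein and the hormone, whose levels are described below. Each runs from 250 bases before to 50 bases after a transcription start listed by RefSeq on GRCm38.p6, 5′ to 3′ on the gene's strand, and capitals mark matches on either strand to the motifs given after them. The windows are chr16:32608872-32609171 on the plus strand for Tfrc (the downstream one of 2 listed starts), chr2:32387690-32387989 on the minus strand for Lcn2 and chr7:30943980-30944279 on the minus strand for Hamp.
Tfrc: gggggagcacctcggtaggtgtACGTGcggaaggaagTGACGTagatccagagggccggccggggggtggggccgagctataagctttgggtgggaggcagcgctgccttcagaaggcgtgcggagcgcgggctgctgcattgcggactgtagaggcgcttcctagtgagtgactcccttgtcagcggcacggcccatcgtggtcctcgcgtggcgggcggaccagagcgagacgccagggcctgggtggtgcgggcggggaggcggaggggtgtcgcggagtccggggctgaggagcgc
Lcn2: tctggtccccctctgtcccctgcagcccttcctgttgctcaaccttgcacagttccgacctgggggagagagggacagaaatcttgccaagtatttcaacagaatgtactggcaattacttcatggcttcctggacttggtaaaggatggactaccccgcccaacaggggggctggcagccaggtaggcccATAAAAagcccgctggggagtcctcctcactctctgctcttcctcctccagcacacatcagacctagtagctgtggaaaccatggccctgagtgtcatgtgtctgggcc
Hamp: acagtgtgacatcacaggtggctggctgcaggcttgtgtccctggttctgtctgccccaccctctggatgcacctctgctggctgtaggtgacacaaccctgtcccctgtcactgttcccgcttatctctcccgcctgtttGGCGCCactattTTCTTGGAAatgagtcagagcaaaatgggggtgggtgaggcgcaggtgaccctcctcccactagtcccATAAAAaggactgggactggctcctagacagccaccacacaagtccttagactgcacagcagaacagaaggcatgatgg
The Tfrc window held ACGTG, the core of a hypoxia response element, which 19.6% of all 32851 windows of 300 bases held on either strand, and TGACGT, the core of a cyclic AMP response element, which 7.51% held. ATAAAA, a form of the TATA box, stood in the Lcn2 and Hamp windows and in 18.5% of all windows. The Hamp window also held GGCGCC, the core of the element through which bone morphogenetic protein (BMP) signalling acts on hepcidin, found in 11.9% of windows, and TTCNNNGAA, the STAT consensus, found in 8.3%. These matches describe the letters of the windows and were not tested against the array values.

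The deposited values were robust multi-array (RMA) intensities on the linear scale, used here as log2, and for each gene the brightest probe set is given first. An adjusted p is limma's, with Benjamini-Hochberg adjustment over all 18193 genes and 0.05 as the threshold, and a difference is KO minus WT on the log2 scale unless said otherwise. The median intensity of an array was 34.3 to 37.4, and the number of arrays, 2 in each group, limits the precision. All 7 cardiomyocyte markers were at or above 8.56, the level of Ryr2 in a 10-week KO heart, on every array. Markers of other tissues differed between single arrays. Serum albumin, Alb, a liver product, spanned 5.19 to 11.05, and Myl7, the atrial myosin light chain, from 10.49 to 12.97. Kap, a kidney gene, reached 9.73 on replicate 1 of the 10-week WT hearts, an array that also read 10.94 for Alb.

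At 10 weeks Lcn2, Hmox1 and Tfrc rose in KO hearts, and Hjv and Slc40a1 fell. The other 5 genes, Slc11a2, Fth1, Hamp, Aco1 and Ireb2, did not pass the test on their brightest probe sets. The 3 higher and 2 lower genes of 10 stood against 5.19% of all genes called higher and 6.89% called lower at that age, 12.1% in all. The 10 were chosen with earlier results of these data known, so these shares do not test the list. The median difference of the 10 genes was 0.03, and that of all genes 0.00485. The KO and WT arrays did not overlap for 7 of the 10 genes, against 47.1% of all genes. At 4 weeks limma called 0 of the 10 genes on their brightest probe sets (0.0275% of all genes), each with an adjusted p of 0.999. On those sets 0 of the 10 had an unadjusted p under 0.05, against 3.73% of all genes. The 4-week KO and WT arrays did not overlap for 6 of the 10 genes, against 36.9% of all genes. In these whole-heart samples, a change in RNA per cell and a change in the share of the cells that make it cannot be told apart.

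**Figure D1:**
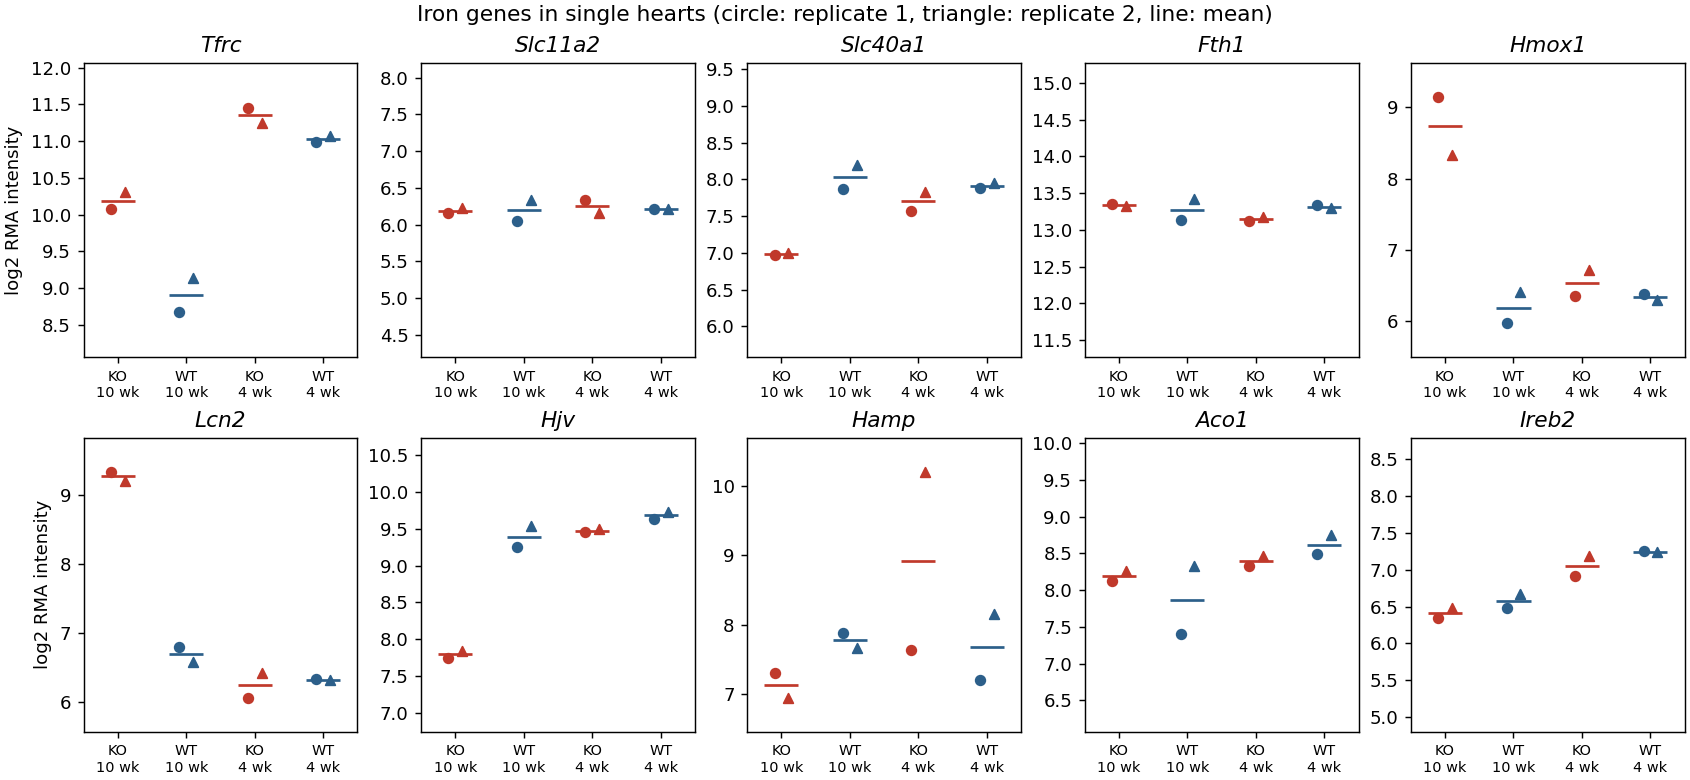
Log2 RMA intensity of the 10 iron genes (brightest probe set) in each heart, by genotype and age, with replicate 1 as a circle, replicate 2 as a triangle and the group mean as a line; each panel has its own range. The 10-week KO hearts stand above the 10-week WT hearts for Tfrc, Hmox1 and Lcn2 and below them for Slc40a1 and Hjv, and 1 of the 4-week KO hearts stands apart for Hamp.

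Tfrc, the receptor for transferrin-bound iron, read 10.07 and 10.30 in 10-week KO hearts, against 8.67 and 9.13 in WT hearts. At 4 weeks it read 11.45 and 11.25 in KO hearts, against 10.98 and 11.07 in WT hearts. On this brightest probe set both KO hearts were above both WT hearts at each age, and all 4 hearts of 10 weeks were below all 4 of 4 weeks. The difference at 10 weeks was 1.29 ± 0.17 (SE, n = 2 per group), 2.44-fold, with a limma adjusted p of 0.00155. At 4 weeks it was 0.32 ± 0.17 (limma adjusted p = 0.999). The difference of these differences, 0.96 ± 0.24, did not pass (limma adjusted p = 0.0871). It passed with quantile normalization again (1.03, limma adjusted p = 0.0354) and without 10-week WT replicate 2 (1.19, 0.00796).

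Tfrc was also the member with the largest age difference in WT hearts. The mean was 8.90 ± 0.33 at 10 weeks and 11.03 ± 0.06 at 4 weeks in WT (SD, n = 2 each), a 10 minus 4 weeks difference of -2.13 ± 0.17 or 4.37-fold (limma adjusted p = 0.00347). In KO it was 10.19 ± 0.16 at 10 weeks and 11.35 ± 0.14 at 4 weeks, a difference of -1.16 ± 0.17 (limma adjusted p = 0.00315). On its brightest probe set the group means were thus highest in 4-week KO, then 4-week WT, then 10-week KO, and lowest in 10-week WT. The 2 groups of 4 weeks did not pass the test against each other. The age difference in WT lost its call without 4-week WT replicate 2 (-2.08, limma adjusted p = 0.0591) and with only the WT groups in the fit (0.103). Tfrc was the 1 gene of the 10 called between ages in WT, where 0.115% of all genes were.

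Tfrc had 6 probe sets, 3 of them Affymetrix control probe sets for the 3′ end, middle and 5′ end of its messenger RNA. Tested singly among 45040 probe sets, of which 8.08% were called at 10 weeks, 5 of the 6 were higher in KO. The 3′ control set differed by 0.94 ± 0.19 (limma adjusted p = 0.013) and the 5′ set by 0.83 ± 0.21 (0.0369), while the middle set, at 0.46 ± 0.21, did not pass (0.28). The 2 remaining sets differed by 0.98 and 0.99. All 6 agreed in sign at 10 weeks, and the brightest gave the largest difference. At 4 weeks the 6 sets lay between -0.09 and 0.32, and none passed. The second brightest read 9.29 and 8.80 in 4-week KO hearts, against 8.75 and 8.86 in WT hearts, so the groups overlapped there. The 10 minus 4 weeks difference was below 0 on all 6 sets in both genotypes. It passed on 4 of the 6 in WT and on 3 in KO. Red cell precursors are rich in Tfrc. Of the 3 red cell markers measured, Slc4a1, the anion exchanger of red cells, fell by 1.15 ± 0.15 in 10-week KO (limma adjusted p = 0.00133) and none rose. Their summed intensity was 250 to 455 in 10-week KO hearts and 434 to 768 in WT hearts, and at 4 weeks 789 to 845 in KO hearts and 515 to 706 in WT hearts. None of the 3 was at 0, as no value on these arrays was. Fibroblast markers were higher with Tfrc: 5 of 6 rose in 10-week KO, with a median difference of 1.13, led by the collagen Col1a1 at 2.05 ± 0.21 (limma adjusted p = 0.000417). Their summed intensity was 14000 to 14300 in 10-week KO hearts and 5630 to 7580 in WT hearts, and at 4 weeks 11100 to 12600 in KO hearts and 10100 to 11800 in WT hearts. Between ages in WT the list had a median difference of -0.74, with Col1a1 and Col3a1 lower at 10 weeks and 4 not passing. Between ages in KO its median was -0.12, with 1 marker higher at 10 weeks and 5 not passing, while Tfrc differed by -1.16. None of the 6 was at 0, as no value on these arrays was. The part of red cells or fibroblasts in the Tfrc result was not tested.

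Slc11a2, the divalent metal transporter that moves iron out of endosomes, differed between its 4 probe sets. The brightest read 6.15 and 6.22 in 10-week KO hearts, against 6.05 and 6.33 in WT hearts, a difference of -0.00367 with a 95% interval from -0.31 to 0.30 (limma adjusted p = 0.992). The second brightest read 6.07 and 6.35 in 10-week KO hearts, against 5.31 and 5.48 in WT hearts. Both KO hearts were above both WT hearts on that set, by 0.81 ± 0.14, and it passed among all probe sets (limma adjusted p = 0.00611). The other 2 sets differed by 0.07 and 0.06 (limma adjusted p = 0.893 and 0.867). At 4 weeks the second brightest set read 5.99 and 5.82 in KO hearts, against 5.85 and 5.88 in WT hearts, and the 4 sets lay between -0.01 and 0.08. Slc11a2 is known to be made as messages with different ends, 1 form with an iron-responsive element. Which form each probe set reads is not given in the sources used here.

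**Figure D2:**
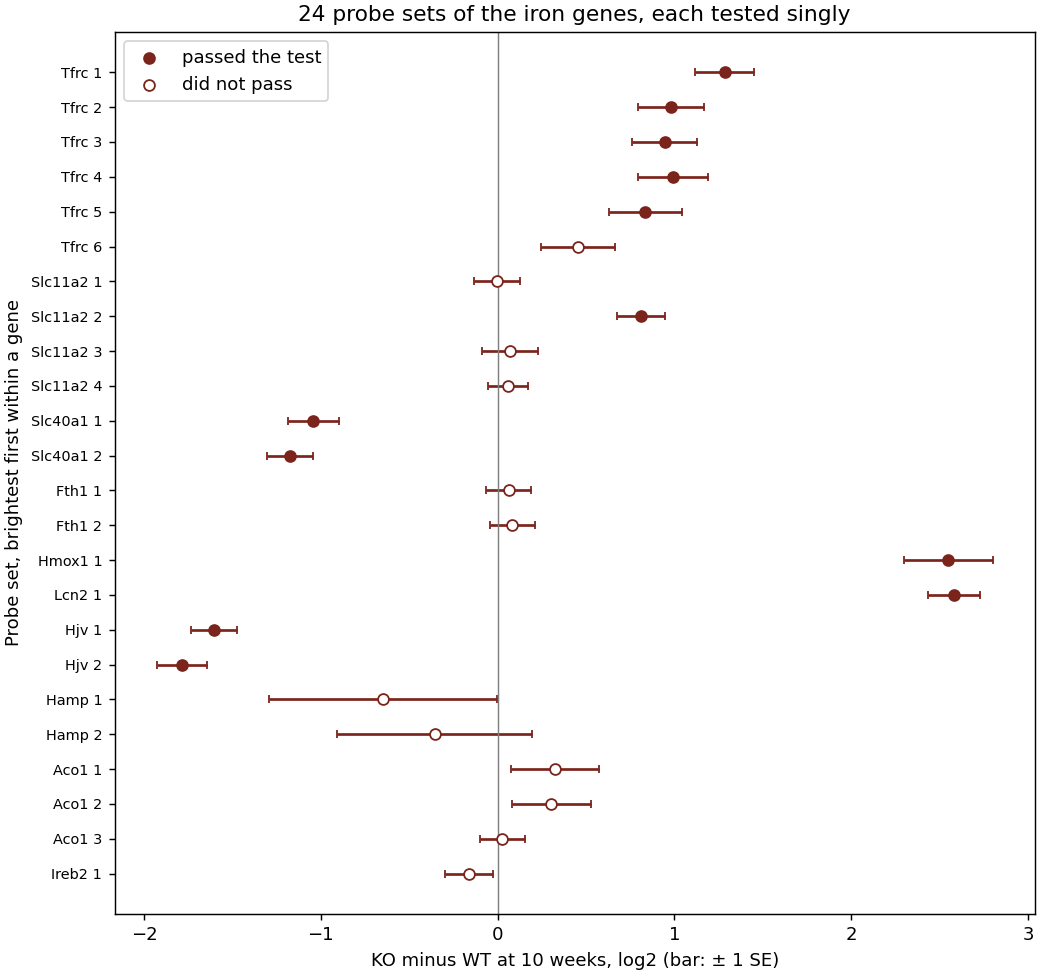
KO minus WT difference at 10 weeks on the log2 scale, with ± 1 SE, for each of the 24 probe sets of the 10 genes, numbered from the brightest within a gene; filled points passed the test over all probe sets. 12 of the 24 passed, 8 higher and 4 lower, against 8.08% of all 45040 probe sets. Sets of 1 gene read the same gene again, and 5 of the 12 belong to Tfrc. A single set of Slc11a2 stands apart from its other sets.

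Ferroportin, Slc40a1, is the iron exporter of the cell. It read 6.97 and 7.0 in 10-week KO hearts, against 7.87 and 8.19 in WT hearts. At 4 weeks it read 7.57 and 7.83 in KO hearts, against 7.88 and 7.94 in WT hearts. The KO hearts were below the WT hearts at both ages. Slc40a1 fell by 1.04 ± 0.15 in KO at 10 weeks, 2.06-fold (limma adjusted p = 0.00208), and its second probe set gave -1.18 ± 0.13 (0.000742 over all probe sets). At 4 weeks the difference was -0.21 ± 0.15 (limma adjusted p = 0.999), and the difference of the differences, -0.83 ± 0.21, did not pass (limma adjusted p = 0.0866). It passed with the mean of both probe sets (-0.87, limma adjusted p = 0.0362), with quantile normalization again (-0.92, 0.0246) and without 10-week WT replicate 1 (-0.99, 0.0334). Between ages Slc40a1 was lower at 10 than at 4 weeks in KO, with a difference of -0.72 ± 0.15 (limma adjusted p = 0.0151), and differed by 0.12 ± 0.15 in WT (0.658). The KO call was lost without 4-week KO replicate 2 (-0.59, limma adjusted p = 0.142), 10-week KO replicate 1 (-0.70, 0.0924) or 10-week KO replicate 2 (-0.73, 0.0644). The 10-week KO hearts were the lowest of the 4 groups, and the 3 other group means, 7.70 to 8.03, were not called different in the comparisons run.

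Fth1, the ferritin heavy chain that oxidises iron and stores it, read 13.35 and 13.32 in 10-week KO hearts, against 13.13 and 13.42 in WT hearts. The KO values lay between the WT values. At 4 weeks it read 13.12 and 13.17 in KO hearts, against 13.34 and 13.29 in WT hearts, the KO values being the lower. The difference was 0.06 ± 0.13 at 10 weeks, with a 95% interval from -0.23 to 0.36 (limma adjusted p = 0.845), and -0.17 ± 0.13 at 4 weeks (0.999). The second probe set gave 0.08 and -0.14. Both probe sets carry the mark for shared sequence in their names, and Fth1 has near-identical copies in the genome, so these levels may include other transcripts.

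Hmox1, which breaks heme down to iron, biliverdin and carbon monoxide, read 9.14 and 8.34 in 10-week KO hearts, against 5.97 and 6.41 in WT hearts. In the 4-week hearts it read 6.35 and 6.72 in KO hearts, against 6.39 and 6.30 in WT hearts. Both 10-week KO hearts stood above the other 6 hearts, while the groups of 4 weeks overlapped. Hmox1 rose by 2.55 ± 0.25 in KO at 10 weeks, 5.86-fold (limma adjusted p = 0.000397), and differed by 0.19 ± 0.25 at 4 weeks (0.999). The KO effect was larger at 10 weeks by 2.36 ± 0.36 (limma adjusted p = 0.018). Each single 4-week array left out took that last call away (limma adjusted p = 0.0622 to 0.116), with the difference between 2.17 and 2.54. In KO, Hmox1 was higher at 10 than at 4 weeks by 2.20 ± 0.25 (limma adjusted p = 0.00114), in a comparison that shares the 10-week KO hearts with the one between genotypes.

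Hmox1 is a target of the antioxidant factor NRF2 and is high in macrophages. Of 8 other NRF2 targets 4 were higher in 10-week KO and 4 did not pass, with a median difference of 0.48. Srxn1, which reduces oxidised peroxiredoxins, rose by 1.21 ± 0.18 (limma adjusted p = 0.00235), and Gclc, of glutathione synthesis, by 0.72 ± 0.14 (0.0106). Txnrd1, thioredoxin reductase, rose by 0.76 ± 0.21 (limma adjusted p = 0.0419) and the quinone reductase Nqo1 by 0.60 ± 0.14 (0.0207). Macrophage markers moved with Hmox1: 4 of 7 were higher in 10-week KO, led by Cd68, a lysosomal protein, at 1.80 ± 0.18 (limma adjusted p = 0.000452). Their summed intensity was 5260 to 6220 in 10-week KO hearts and 3530 to 3590 in WT hearts, against 3400 to 3890 in 4-week KO hearts and 3280 to 3640 in WT hearts. None of the 7 was at 0, as no value on these arrays was. The part of macrophages in the Hmox1 result was not tested.

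Lcn2, lipocalin 2, binds siderophores that carry iron and is made by neutrophils and by stressed tissue. It read 9.34 and 9.22 in 10-week KO hearts, against 6.81 and 6.59 in WT hearts. In the 4-week hearts it read 6.07 and 6.43 in KO hearts, against 6.34 and 6.32 in WT hearts. The 10-week KO hearts stood above the other 6, and the groups of 4 weeks overlapped. Lcn2 rose by 2.58 ± 0.15 in KO at 10 weeks, 5.99-fold (limma adjusted p = 2.7e-05), and differed by -0.08 ± 0.15 at 4 weeks (0.999). The KO effect was larger at 10 weeks by 2.66 ± 0.21 (limma adjusted p = 0.000814), and this call held with each array left out in turn. In KO, Lcn2 was higher at 10 than at 4 weeks by 3.03 ± 0.15 (limma adjusted p = 2.52e-05).

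Neutrophil markers were high on a single 10-week KO array. S100a8, a calcium-binding protein of neutrophils, read 10.94 and 5.71 in 10-week KO hearts, against 7.15 and 6.24 in WT hearts. None of the 6 neutrophil markers passed, and none was at 0, as no value on these arrays was. Their summed intensity was 251 to 3620 in 10-week KO hearts and 322 to 467 in WT hearts. Lcn2 was high on both KO arrays and differed by 2.52 without the array that was high in S100a8, a fit with a single 10-week KO heart. The sum of the neutrophil markers at 4 weeks was 347 to 462 in KO hearts and 394 to 396 in WT hearts. The part of neutrophils in the Lcn2 result was not tested. Of 7 acute-phase genes, Serpina3n, a protease inhibitor, rose by 4.06 ± 0.30 and the ferroxidase Cp by 1.07 ± 0.18, and the other 5 did not pass. Socs3, a feedback inhibitor of cytokine signalling, differed by 0.82 ± 0.26 (limma adjusted p = 0.076).

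**Figure D3:**
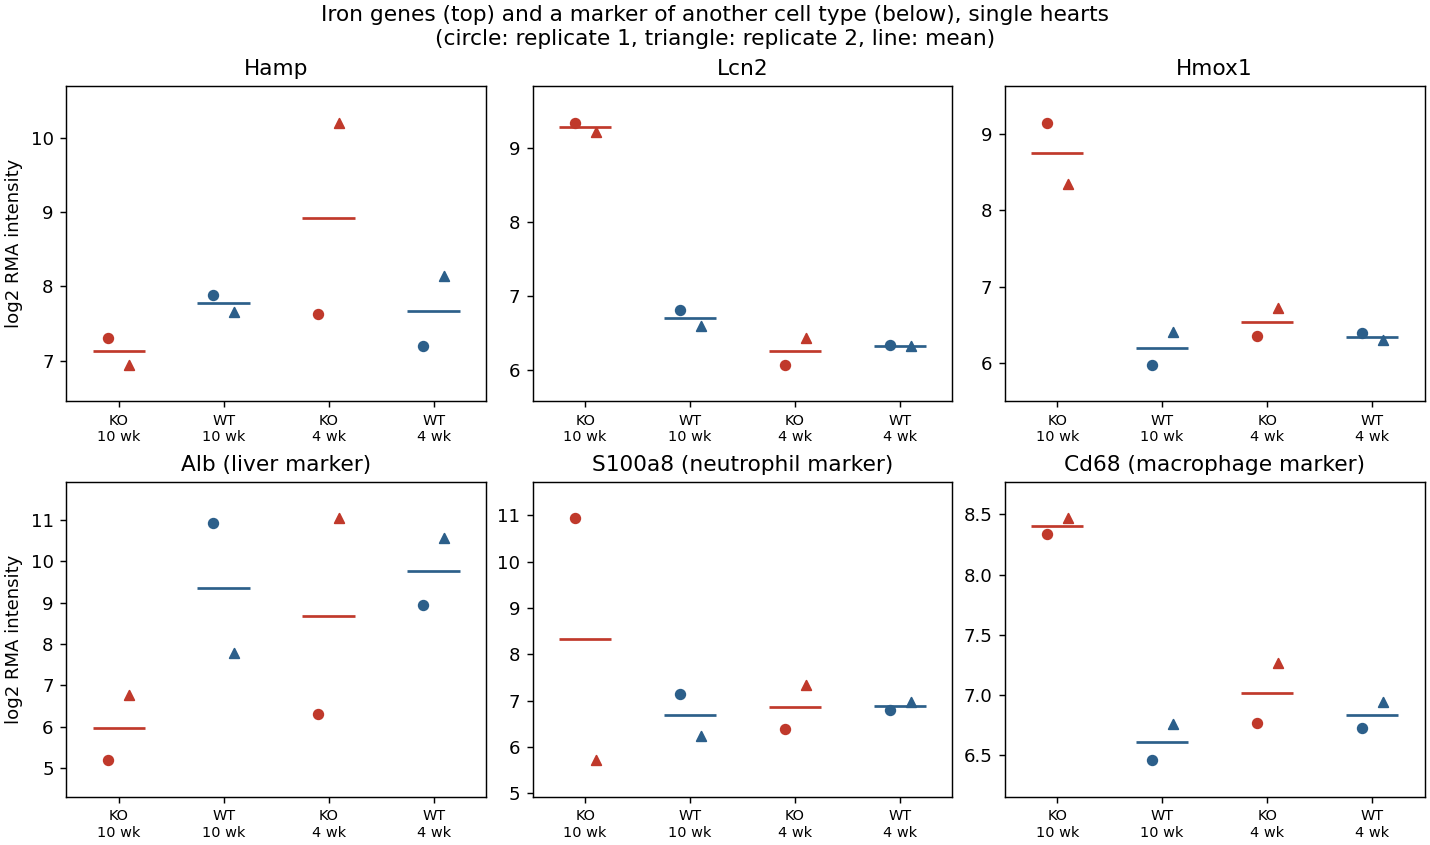
Log2 RMA intensity of Hamp, Lcn2 and Hmox1 (top) above a marker of another cell type (below) in each heart, by genotype and age, with replicate 1 as a circle, replicate 2 as a triangle and the group mean as a line. S100a8 is high in 1 of the 10-week KO hearts while Lcn2 is high in both, Cd68 is high in both as is Hmox1, and the 4-week KO heart with the highest Hamp, 10.20, also has the highest Alb, 11.05.

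Hjv, hemojuvelin, is a co-receptor for BMP ligands that raises hepcidin in liver, and it is also made in skeletal and heart muscle. It read 7.75 and 7.84 in 10-week KO hearts, against 9.26 and 9.54 in WT hearts. In the 4-week hearts it read 9.46 and 9.50 in KO hearts, against 9.64 and 9.74 in WT hearts. The KO hearts were lower at both ages, and the 10-week KO hearts stood below the other 6. Hjv fell by 1.60 ± 0.13 in KO at 10 weeks, 3.04-fold (limma adjusted p = 0.000145), and its second probe set gave -1.79 ± 0.14. At 4 weeks the difference was -0.21 ± 0.13 (limma adjusted p = 0.999). The second set gave -0.33 at 4 weeks, with a 95% interval from -0.65 to -0.01 (limma unadjusted p = 0.0421), and was not called over all probe sets. The KO effect at 10 weeks differed from that at 4 weeks by -1.39 ± 0.19 (limma adjusted p = 0.0105), a call lost without 4-week KO replicate 2 (0.0622), WT replicate 1 (0.0816) or WT replicate 2 (0.0795). In KO, Hjv was lower at 10 than at 4 weeks, with a difference of -1.68 ± 0.13 (limma adjusted p = 0.000156), and in WT it differed by -0.29 ± 0.13 (0.283).

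Of the 7 cardiomyocyte markers 3 were lower in 10-week KO and 4 did not pass. Ryr2, the calcium release channel, fell by 1.27 ± 0.25, Pln, the inhibitor of the calcium pump, by 0.66 ± 0.14, and Tnni3, troponin I, by 0.52 ± 0.12. The summed intensity of the list was 77900 to 87200 in 10-week KO hearts and 83200 to 98100 in WT hearts. Of the 7 skeletal muscle markers 2 were higher, Acta1, skeletal actin, by 2.45 ± 0.22 and Tnnt3 by 0.69 ± 0.18, and none was lower. The median difference of the 7 was 0.0026, with 5 not passing. A sum of linear intensities gives most weight to the brightest of the 7 markers. Their summed intensity was 7370 to 11600 in 10-week KO hearts and 1650 to 2040 in WT hearts, and at 4 weeks 6330 to 6870 in KO hearts and 2740 to 3430 in WT hearts. The cardiomyocyte list summed at 4 weeks to 93800 to 94800 in KO hearts and 99300 to 99400 in WT hearts. No marker of either list was at 0, as no value on these arrays was. The part of a change in muscle cells in the Hjv result was not tested.

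Hamp, the hormone hepcidin, is made mainly in liver, and some is made in heart. It read 7.31 and 6.94 in 10-week KO hearts, against 7.88 and 7.66 in WT hearts. The 4-week levels were 7.63 and 10.20 in KO hearts, against 7.21 and 8.15 in WT hearts. The 10-week KO hearts were the lower pair, and at 4 weeks 1 KO heart stood far above the others while the groups overlapped. The difference was -0.65 ± 0.65 at 10 weeks, with a 95% interval from -2.11 to 0.82 (limma adjusted p = 0.646), and 1.24 ± 0.65 at 4 weeks (0.999). Without the high 4-week KO heart, replicate 2, the 4-week difference was -0.05 (limma adjusted p = 1). The second probe set gave -0.36 and 1.23, and its name marks sequence shared with other transcripts. Mice carry a close copy, Hamp2, so the level may include both.

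The heart with the highest Hamp level also had the highest levels of Alb and Myl7. Alb read 6.31 and 11.05 in 4-week KO hearts, against 8.96 and 10.57 in WT hearts, and Myl7 read 11.54 and 12.97 in 4-week KO hearts, against 10.57 and 11.40 in WT hearts. The summed intensity of 7 liver markers was 429 to 532 in 10-week KO hearts and 628 to 5100 in WT hearts, and at 4 weeks 371 to 4940 in KO hearts and 1200 to 3230 in WT hearts. That of 4 atrial markers was 23300 to 23600 in 10-week KO hearts and 16000 to 24100 in WT hearts, and at 4 weeks 13200 to 28100 in KO hearts and 6300 to 9290 in WT hearts. Such a sum gives most weight to the brightest of the 4 markers. At 10 weeks 1 atrial marker was higher in KO, 1 was lower and 2 did not pass, with a median difference of -1.189. At 4 weeks the median difference of the atrial markers was 1.302, and none of the 4 passed. None of the 7 liver markers passed at either age, and no marker of either list was at 0. Hamp read 7.88 on 10-week WT replicate 1, where the liver markers summed to 5100. The part of liver or atrial material in the Hamp values was not tested.

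The 2 iron regulatory proteins did not pass between genotypes. Aco1 read 8.13 and 8.26 in 10-week KO hearts, against 7.40 and 8.33 in WT hearts, and 8.33 and 8.46 in 4-week KO hearts, against 8.49 and 8.75 in WT hearts. The 10-week KO values lay between the WT values, since WT replicate 1 was low. The difference was 0.32 ± 0.25 at 10 weeks, with a 95% interval from -0.24 to 0.89 (limma adjusted p = 0.519). Without WT replicate 1 it was -0.14 (limma adjusted p = 0.705), and without WT replicate 2 it was 0.79 and passed (0.00752), so a single WT array decided it.

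Ireb2 read 6.34 and 6.47 in 10-week KO hearts, against 6.48 and 6.66 in WT hearts. The 4-week levels were 6.92 and 7.19 in KO hearts, against 7.25 and 7.24 in WT hearts. Both KO hearts were below both WT hearts at each age. The difference was -0.16 ± 0.14 at 10 weeks, with a 95% interval from -0.47 to 0.15 (limma adjusted p = 0.562), and -0.19 ± 0.14 at 4 weeks (0.999). All 4 hearts of 10 weeks were below all 4 of 4 weeks. The 10 minus 4 weeks difference was -0.65 ± 0.14 in KO (limma adjusted p = 0.0183) and -0.67 ± 0.14 in WT (0.123). The call in KO was lost without 4-week KO replicate 2 (-0.51, limma adjusted p = 0.16), 10-week KO replicate 1 (-0.58, 0.121) or 10-week KO replicate 2 (-0.71, 0.0513).

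**Figure D4:**
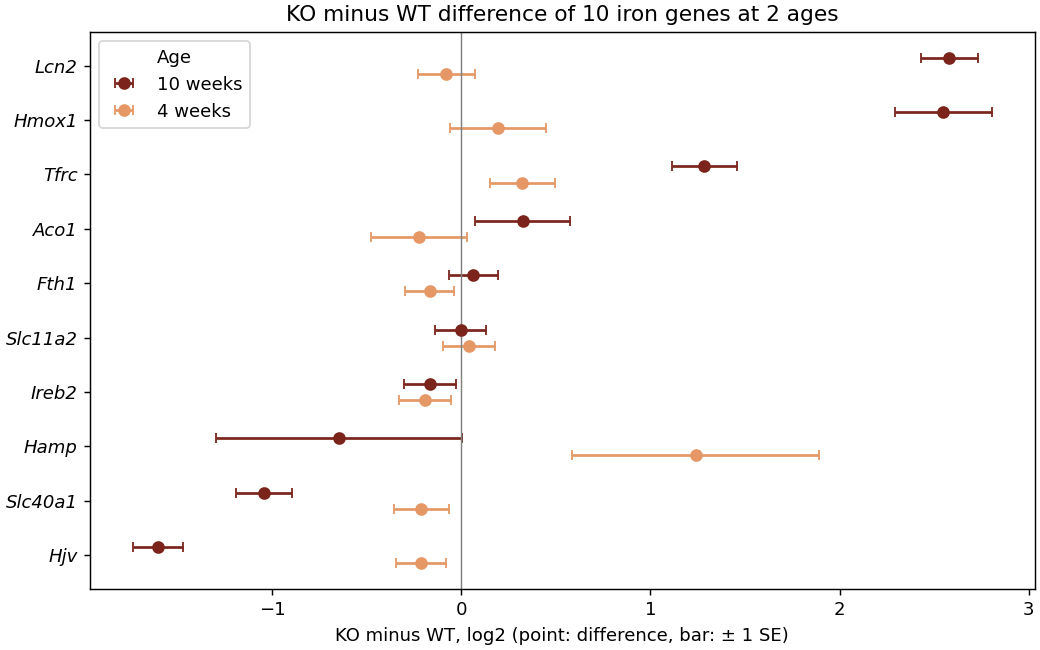
KO minus WT difference on the log2 scale, with ± 1 SE, of the 10 iron genes (brightest probe set) at 10 weeks (dark) and 4 weeks (light), ordered by the difference at 10 weeks. Lcn2 and Hmox1 lie near 2.6 at 10 weeks and near 0 at 4 weeks, and Hjv and Slc40a1 lie furthest below 0 at 10 weeks.

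The test of the change of the KO effect between ages passed for 3 of the 10 genes, Lcn2, Hmox1 and Hjv, against 2.08% of all genes. Between ages within KO 6 of the 10 passed, against 10.5% of all genes: Lcn2 and Hmox1 were higher at 10 weeks (3.42% of all genes were), and Tfrc, Slc40a1, Hjv and Ireb2 lower (7.07%). The comparison of genotypes at 10 weeks and that of ages in KO share the 10-week KO hearts. Without 10-week WT replicate 1, the array that stood apart, the 10-week KO difference was 2.69 for Lcn2, 2.33 for Hmox1, 1.06 for Tfrc, -1.74 for Hjv and -1.21 for Slc40a1. All 5 kept their calls there (limma adjusted p = 3.76e-05 to 0.00313).

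Other genes of iron handling were taken from a list of 50 genes in 7 roles, of which 47 were measured. At 10 weeks 4 were higher and 2 lower in KO, with 41 not passing and a median difference of 0.08. That is 12.8% of the 47, near the 12.1% of all genes called at that age, and the count is not a result about the list. At 4 weeks limma called 0 of the 47. Among 15 genes of uptake and reduction, Scara5, a receptor for ferritin, read 6.08 and 6.42 in 10-week KO hearts, against 7.75 and 8.04 in WT hearts. Both KO hearts were below both WT hearts, and Scara5 fell by 1.65 ± 0.18, 3.14-fold (limma adjusted p = 0.000601). Its dimmer probe set gave -0.14 (limma adjusted p = 0.703). Members of the Steap family differed in direction. Steap1 rose by 0.78 ± 0.13 (limma adjusted p = 0.00466), Steap4 fell by 0.60 ± 0.13 (0.0146), and Steap2 and Steap3 were at 0.08 and -0.30 and did not pass.

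Of 7 genes of export and iron oxidation 2 were higher. Ceruloplasmin, Cp, a ferroxidase that loads iron onto transferrin, read 10.35 and 10.06 in 10-week KO hearts, against 8.96 and 9.31 in WT hearts. Both KO hearts were above both WT hearts, and Cp rose by 1.07 ± 0.18, 2.09-fold (limma adjusted p = 0.00441). Of its 8 probe sets 5 passed singly. Hephaestin, Heph, a membrane ferroxidase, was dim. It read 4.75 and 4.83 in 10-week KO hearts, against 4.14 and 4.16 in WT hearts, a difference of 0.64 ± 0.14 (limma adjusted p = 0.0197). At 4 weeks Heph read 4.42 and 4.72 in KO hearts, against 4.37 and 4.62 in WT hearts. These levels lie under the median of the arrays. Of 13 genes of systemic control, Smad7, an inhibitor of BMP signalling, rose by 0.56 ± 0.15 (limma adjusted p = 0.0474), and 12 did not pass, among them the ligand Bmp6 at 0.17 ± 0.17. None of the 6 genes of storage, the 2 mitochondrial importers, the 3 of heme breakdown or Fbxl5, which targets Ireb2 for degradation, passed. The mitoferrins Slc25a37 and Slc25a28 were at -0.41 ± 0.22 and -0.16 ± 0.12. Scara5 and Cp kept their calls in all 18 settings. Steap1 kept its call in 17, and the filter that left out genes with a mean log2 under 6 removed it. Smad7 was called in 7 of 18, and lost its call without any single array other than 10-week WT replicate 2. Without WT replicate 1 its difference was 0.33 (limma adjusted p = 0.194). It also lost it with median centring (0.0734), array weights (0.0671), probe sets tested singly (0.0557) and only the 10-week groups (0.172). Heph lost its call without 10-week KO replicate 1 (limma adjusted p = 0.0766) or 2 (0.106), with array weights (0.0589) and with only the 10-week groups (0.0544). Steap4 lost it without KO replicate 2 (limma adjusted p = 0.0988) and with only the 10-week groups (0.0804).

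**Figure D5:**
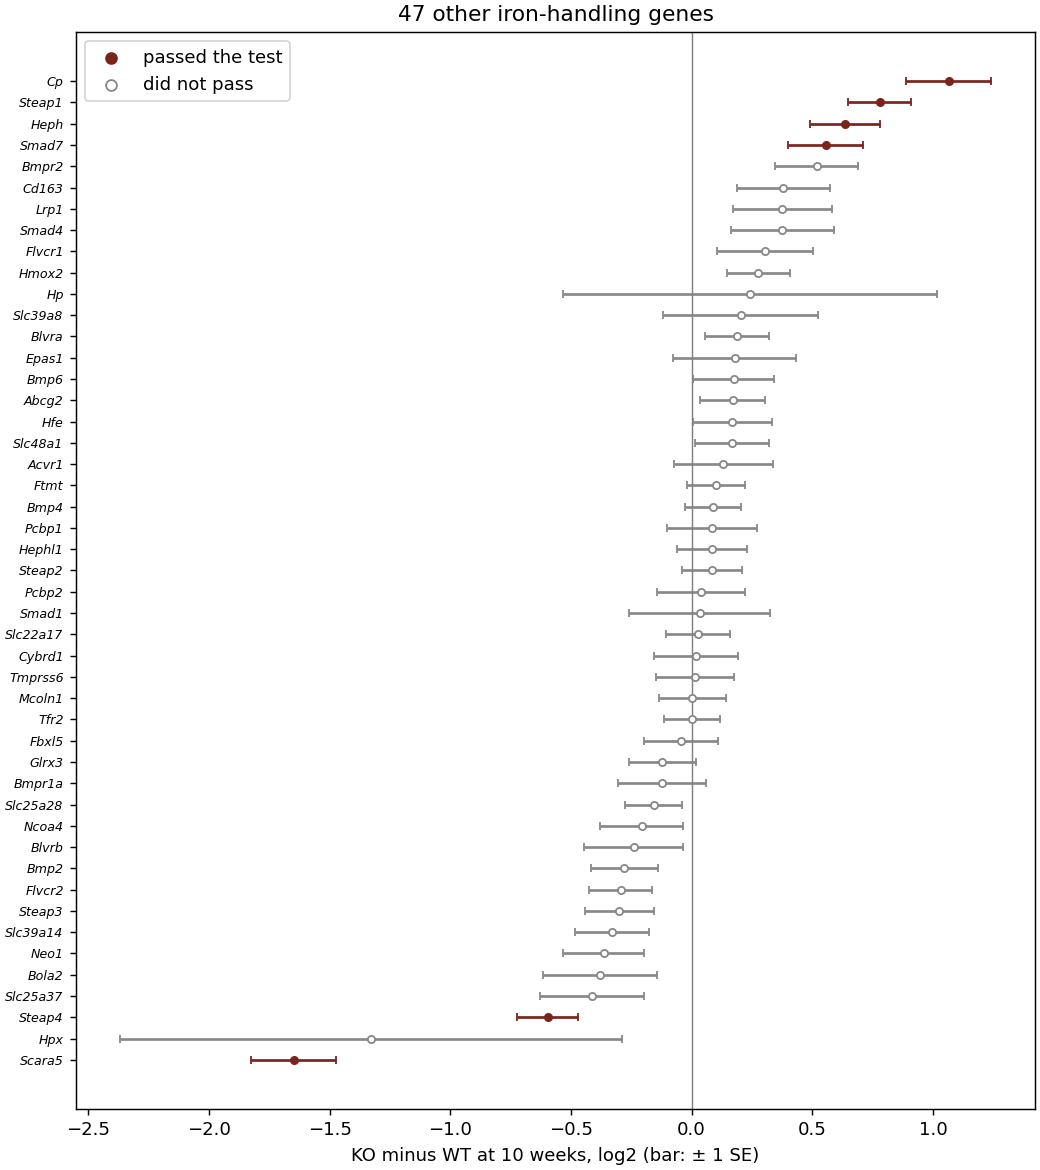
KO minus WT difference at 10 weeks on the log2 scale, with ± 1 SE, of the 47 other iron-handling genes measured, from the highest to the lowest; filled points passed the test over all genes. Cp, Steap1, Heph and Smad7 stand above 0 and Steap4 and Scara5 below it, and Hpx and Hp have wide errors.

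The genes most like each of the 5 called members over the 8 arrays were ranked by Pearson correlation of log2 levels, among 2695 other named genes with a range of at least 1. These correlations describe patterns over the same 8 arrays, whose points share group, age and litter. For Tfrc they were the collagens Col6a1 (0.977) and Col4a1 (0.967), and Ralgapa2 (0.944). For Slc40a1 they were Heatr5b (0.991), the aldehyde oxidase Aox1 (0.988) and Rprd1a (0.983). For Hmox1 they were Tmbim1 (0.99), the secreted Wnt antagonist Frzb (0.99) and the lysyl oxidase family member Loxl3 (0.989). For Lcn2 they were Serpina3n (0.99), Efhd2 (0.99) and the matrix protein Ltbp2 (0.989). For Hjv they were thrombomodulin, Thbd (0.998), Lrtm1 (0.997) and muscle enolase, Eno3 (0.993), the last falling by 1.05 ± 0.12 in 10-week KO (limma adjusted p = 0.000713).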

How the data were processed

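Hearts of 8 female mice were measured on 1 Affymetrix array each. The authors deposited a linear-scale intensity for each probe set. GCOS 1.3 and RMA are the tools in the submitters' processing notes, without their order or an RMA version. RMA corrects background, equalises the arrays' distributions and summarises probes across arrays, which compresses differences of dim probe sets.

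Log2 was taken here with no filter or pseudocount. 64 Affymetrix control probe sets were left out of the gene table, and 34945 of the 45037 others name 1 gene (932 several, 9160 none). Symbols were matched to RefSeq by Entrez ID for 34741. Each of 18193 genes was represented by its brightest probe set over the 8 arrays. The 24 probe sets of the 10 genes, 3 control sets of Tfrc included, were also tested singly among 45040. limma 3.58.1, in R 4.3.3, estimated a mean for each of the 4 groups from the 8 arrays together, and eBayes moderation gave 9.33 total degrees of freedom (4 residual). Tests were two-sided. The limma script was tested on simulated data. Alternatives were other summaries of probe sets, filters, normalizations and weights, a replicate block, and each array left out.

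Members and lists were chosen with earlier results of these data known. Of the 50 other iron-handling genes, Trf, Ftl1 and Erfe have no probe set that names them alone. By rule, called genes of these lists were named, with up to 4 of the NRF2 and acute-phase lists and the 3 most correlated genes of each called member; other genes given beside them were chosen after their values were seen. The marker lists not described with a gene were endothelial (0 of 4 called at 10 weeks) and kidney (1 of 3 lower). The deleted gene is not reported here.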

Additional observations from a re-analysis of the deposited data

Results flagged for a closer look

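For 3 of the 10 genes the KO minus WT difference at 10 weeks differed from that at 4 weeks by a test of the difference itself. The values, 10 minus 4 weeks, were 2.66 ± 0.21 for Lcn2 (limma adjusted p = 0.000814), 2.36 ± 0.36 for Hmox1 (0.018) and -1.39 ± 0.19 for Hjv (0.0105). The ages differ in litter as well, so age and litter cannot be told apart. The spread of Hamp was widest in the 4-week KO pair, with an SD of 1.82, against 0.67 in 4-week WT, 0.26 in 10-week KO and 0.16 in 10-week WT, and this difference in spread was not tested.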

How the results depend on the processing

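The comparisons were rerun under 18 other settings, 8 of them without a single array (17 for the change of the KO effect between ages). The 5 calls at 10 weeks held under every setting in which the gene was measured (Lcn2 and Hjv have no probe set once those of shared sequence are left out, so 3 members were called there), and the count lay between 5 and 6 without 1 array. At 4 weeks it was 0 in each. The count for the change of the KO effect, 3, was 1 with shared-sequence sets left out, 5 with quantile normalization again, 5 with the replicate block, and 1 to 5 without 1 array, where all genes called were 379, 305, 486, 751 and 40 to 1600 in the same order. For 10 minus 4 weeks in WT, 1 member was called and 0 with only the groups of the comparison (21 and 3 of all genes). In KO, 6 were called, where 1908 of all genes were. Both member counts moved in some fits without 1 array, which leave a single heart in a group. Of the other iron-handling genes 6 were called at 10 weeks, 3 with only the groups of the comparison and 3 to 9 without 1 array.

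The labels do not say that replicate numbers pair mice. Within an age, deviations of same-numbered hearts correlated at 0.23 (10 weeks) and 0.302 (4 weeks) across genes, and the replicate block moved all genes called at 10 weeks to 2841, against 2199 without it. Under the block the change of the KO effect also passed for Tfrc (limma adjusted p = 0.03) and Slc40a1 (0.0481), and the age difference in KO for Hamp (0.0084). Array weights gave 1674, only the 10-week groups 959, and leaving out 1 array 1154 to 3244.

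Of 875 values of single genes under other settings 822 stayed on the same side of the threshold and of 0, 15 lost and 14 gained a call, and 24 changed sign, none of them a called value. With the mean of its probe sets, Slc11a2 changed sign to 0.23 at 10 weeks, 0.20 for the change of the KO effect and 0.10 between ages in KO. With quantile normalization again, it changed to 0.011 between ages in WT, and Ireb2 to -0.061 for the change of the KO effect. The other changes of sign came without 1 array. For Slc11a2 the values lay between -0.14 and 0.13 at 10 weeks, -0.050 and 0.13 at 4 weeks, -0.18 and 0.094 for the change of the KO effect, -0.15 and 0.031 in KO, and -0.15 and 0.12 in WT between ages. At 10 weeks they lay between -0.079 and 0.21 for Fth1 and -0.14 and 0.79 for Aco1. At 4 weeks they lay between -0.26 and 0.10 for Lcn2 and -0.049 and 2.53 for Hamp, and for the change of the KO effect between -0.11 and 0.17 for Ireb2. Between ages in WT they lay between -0.047 and 0.28 for Slc40a1, -0.18 and 0.10 for Fth1, -0.37 and 0.064 for Hmox1, and -0.37 and 0.57 for Hamp. The cause was not tested.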
